A study of Mus musculus with 30 samples.

Results

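The genes described here are the collagen chains and a set of matrix genes usually linked with stromal cells, measured by RNA sequencing in cultures of dendritic cells that were started from the bone marrow of mice. They were chosen by symbol, as every row whose symbol has the form of a collagen chain, plus Sparc, Fn1, Postn, Dcn, Lum, Bgn, Fbln1, Fbn1, Lox, Mgp, Sfrp4, Thbs1, Thbs2 and Pdgfrb. This rule found 59 of the 25611 gene rows in the count table. Of these, 44 were collagen chains and 14 were the other matrix genes. The remaining row, Col4a3bp, encodes a ceramide transfer protein and no collagen, so it is given once below and kept out of all counts of members. Of the 58 genes, 48 passed a filter on low counts and were tested, namely 34 chains and all 14 other genes, and 38 had a mean of at least 1 CPM, the usual unit of counts scaled to library size.

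The study compared bone marrow cultures from wild-type mice (WT) with cultures from mice labelled as knockouts of Rubcn (KO), a regulator of autophagy and of the uptake pathway called LC3-associated phagocytosis. The series title sets the question as how non-canonical autophagy bears on cross-presentation, the display of engulfed antigen to T cells. All cultures were driven for 6 or 7 days by FLT3L, used at 200 ng/ml, the growth factor that yields conventional and plasmacytoid dendritic cells. Each genotype was sampled without treatment, after 30 min or 4 h with OVA (ovalbumin), and after 30 min or 4 h with apoptotic Jurkat cells, a human leukaemic T cell line, which makes 10 groups of 3 libraries. The sources used here do not give the knockout allele, the strain, sex and age of the mice, or any sorting of the cells. The labels do not say whether the 3 libraries of a group came from separate mice or cultures, so every p-value measures only the spread between these libraries, which may be technical.

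Collagens are trimers of chains that fall into families. Fibrillar collagens such as types I, III and V form tension-bearing fibres, type IV forms the sheet of basement membranes, type VI forms beaded filaments around cells, and other types sit on fibre surfaces or span the cell membrane. In bone marrow, these genes are known as products of stromal, osteoblastic and perivascular cells rather than of dendritic cells, and fibronectin, thrombospondins and SPARC are also made by some blood-lineage cells.

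Promoter sequences are printed for the genes on which the main results turn. Sparc and Col1a2 stand for the genes that were higher in KO in all conditions, Col27a1 and Col5a3 for those that rose most with Jurkat cells among the genes with a mean of at least 1 CPM, and Col3a1 for those that were high in single libraries. Each is the run of 250 bases before the RefSeq start on mouse build GRCm38.p6, 5′ to 3′ on the gene's strand, with capitals marking any match to TATAA, to the CCAAT box (CCAAT), to the GC box (GGGCGG) or to an NF-kB pattern (GGG and CC with any 5 bases between), searched on both strands with overlaps kept. An AP-1 pattern (TGANTCA) was searched as well and had no match in these 5 windows.
Sparc (chr11:55420081-55420330, minus strand): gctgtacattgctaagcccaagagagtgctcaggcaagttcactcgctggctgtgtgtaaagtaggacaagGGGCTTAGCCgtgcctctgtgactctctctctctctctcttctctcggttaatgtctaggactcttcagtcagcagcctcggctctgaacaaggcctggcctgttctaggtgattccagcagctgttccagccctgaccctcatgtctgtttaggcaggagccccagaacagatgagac
Col1a2 (chr6:4505368-4505617, plus strand): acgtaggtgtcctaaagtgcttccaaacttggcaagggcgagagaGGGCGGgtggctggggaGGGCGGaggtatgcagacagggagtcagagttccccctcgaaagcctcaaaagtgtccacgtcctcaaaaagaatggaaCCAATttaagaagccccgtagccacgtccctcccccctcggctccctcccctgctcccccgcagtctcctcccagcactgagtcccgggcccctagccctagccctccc
Col27a1 (chr4:63215162-63215411, plus strand): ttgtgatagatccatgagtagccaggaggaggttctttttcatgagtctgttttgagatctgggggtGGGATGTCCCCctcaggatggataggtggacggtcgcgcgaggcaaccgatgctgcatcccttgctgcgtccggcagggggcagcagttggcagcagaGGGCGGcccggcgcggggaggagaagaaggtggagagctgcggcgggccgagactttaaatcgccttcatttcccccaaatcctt
Col5a3 (chr9:20815068-20815317, minus strand): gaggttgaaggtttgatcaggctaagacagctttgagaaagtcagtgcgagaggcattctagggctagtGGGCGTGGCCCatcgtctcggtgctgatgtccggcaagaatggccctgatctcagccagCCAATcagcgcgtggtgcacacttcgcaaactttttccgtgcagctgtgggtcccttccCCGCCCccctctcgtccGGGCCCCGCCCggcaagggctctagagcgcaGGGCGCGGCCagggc
Col3a1 (chr1:45311288-45311537, plus strand): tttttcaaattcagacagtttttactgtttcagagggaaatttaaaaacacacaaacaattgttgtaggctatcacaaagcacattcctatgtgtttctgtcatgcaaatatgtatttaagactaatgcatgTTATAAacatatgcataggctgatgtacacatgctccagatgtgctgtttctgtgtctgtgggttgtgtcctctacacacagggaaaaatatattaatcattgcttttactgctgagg

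Of the 58 genes, 41 had a promoter in the RefSeq table. Among those 41 windows, 19.5% held TATAA, 31.7% the CCAAT box, 56.1% the GC box, 65.9% the NF-kB pattern and 2.44% the AP-1 pattern. Among all 32851 windows of the same length, which could include several of the same gene, the shares were 22.8%, 33.8%, 32.7%, 45.8% and 6.75%. The shown windows differ from each other: Col5a3 held 5 matches to the NF-kB pattern and 2 GC boxes, Col27a1 held 2 and 1, and Col3a1 held neither but 2 overlapping TATAA matches. A match is a description of letters and not a site.

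Total counts ran from 9.73 M to 51.6 M, with 44.9 M as the median over libraries, and the shallowest library was replicate 3 of KO with OVA for 30 min. The 11 dendritic markers checked all stood above 1 CPM in every group, with summed group means of 10044 to 14310 CPM. Rubcn itself stood at 95.6 to 105 CPM in untreated WT and at 70.4 to 75.8 CPM in untreated KO, and it was lower in KO without overlap in all 5 conditions, with many reads still counted in KO. Among 14 markers of mesenchymal stroma, Tcf21 was at 0 in all 30 libraries, and 9 or 10 of the 14 were above 1 CPM in each group. Replicate 2 of KO with OVA for 30 min, replicate 2 of KO with Jurkat for 4 h and replicate 3 of WT with OVA for 4 h stood apart in several matrix genes (values below). For KO against WT, the counts of these matrix genes called and their summed levels are given without these libraries as well.

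The marker genes of the set were well expressed. Divided by exon length (the union of all annotated exons, GENCODE M21), the level in untreated WT was highest for Sparc, a collagen-binding matrix glycoprotein, at 32.7 ± 2.35 CPM per kb (SD, n = 3). Fn1 (fibronectin) followed at 31.1 ± 2.10, Thbs1 (thrombospondin 1) at 25.9 ± 1.60 and Col1a1 at 24.4 ± 1.56. The gap between Sparc and Fn1 and that between Thbs1 and Col1a1 were smaller than their SD between libraries. Both genes of a pair were read in the same libraries, so that SD does not settle their order. Col1a2 stood at 19.8 ± 1.63 and Bgn (biglycan) at 19.2 ± 1.78 CPM per kb, again within their spread. At the other end, 10 chains did not pass the filter: Col4a3, Col4a4, Col4a6, Col6a5, Col6a6, Col9a1, Col13a1, Col14a1, Col26a1 and Col28a1, with between 7 and 164 counts over all 30 libraries.

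Many of the matrix genes were higher in KO than in WT, in untreated cells and under every treatment. In untreated cells, 26 of the 48 tested genes passed the test (edgeR, false discovery rate, FDR, under 0.05), 24 of them higher in KO and 2 lower, where 9.97% of all 14808 genes tested passed, 6% higher and 3.97% lower. The median log2 fold change was 0.53 over the 48 genes and -0.01 over all genes. In these bulk libraries, more cells of a type and more RNA per cell cannot be told apart. Without replicate 1 of untreated KO, the count was 17, with 15 higher and 2 lower, and the calls over all genes went from 1477 to 898.

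**Figure D1:**
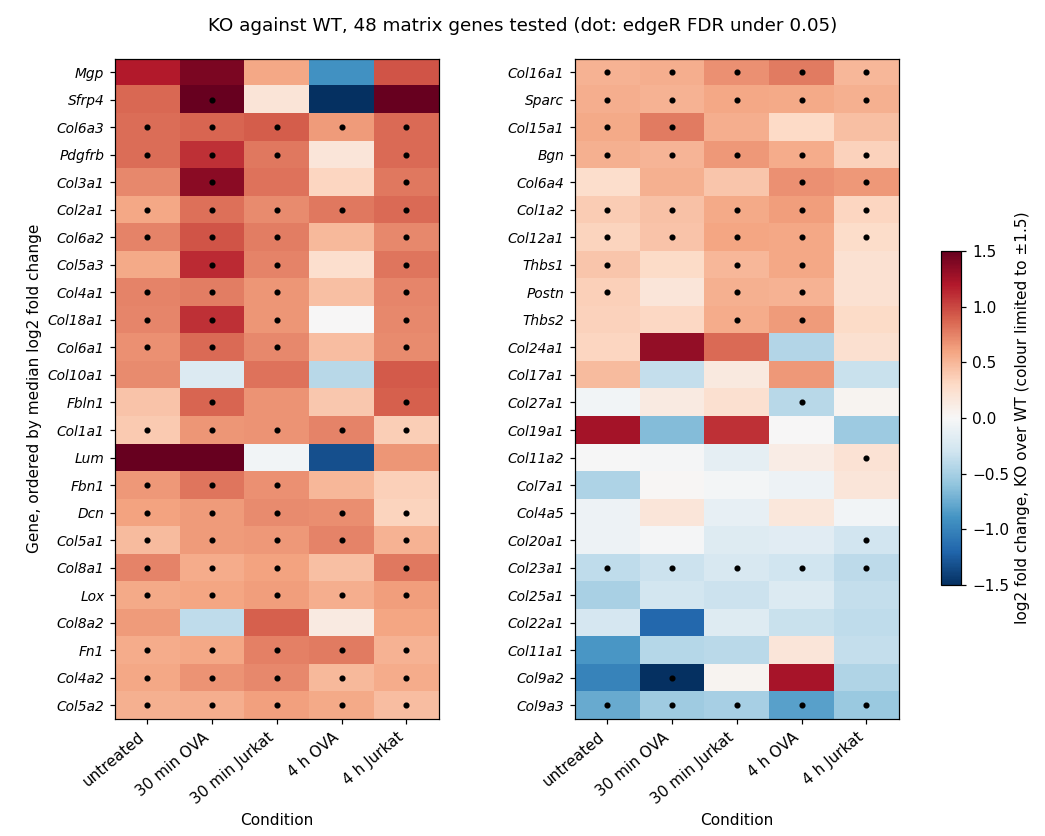
Each row is 1 of the 48 tested genes and each column 1 of the 5 conditions; colour gives the log2 fold change of KO over WT and a dot marks an FDR under 0.05. Most of the upper rows are red in every column, with 14 genes higher in all 5 conditions, while Col23a1 and Col9a3 are lower in all 5.

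The type I chains show the size of the difference. Col1a1, which encodes the major chain of type I collagen, stood at 155, 153 and 172 CPM in untreated WT and at 218, 225 and 189.5 CPM in untreated KO. All KO libraries were above all WT libraries. The log2 fold change was 0.40 (SE 0.09, FDR 0.00274). Col1a2, its partner chain, stood at 227, 242 and 267 CPM against 357, 321 and 279 CPM, also without overlap, with a log2 fold change of 0.38 (SE 0.08, FDR 0.00285). Within single libraries, the CPM of Col1a2 over that of Col1a1, not corrected for length, ran from 1.38 to 1.70 over all 30 libraries.

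Among the other abundant genes, Fn1, the cell-adhesive fibronectin, stood at 345, 354 and 391 CPM in untreated WT and at 609, 534 and 457 CPM in untreated KO. The groups did not overlap, and the log2 fold change was 0.55 (SE 0.08, FDR 4.51e-05). Sparc stood at 114, 127 and 131 CPM against 206, 181 and 155 CPM, with a log2 fold change of 0.54 (SE 0.09, FDR 0.000236). Its lowest KO library was above the highest WT library. Bgn, a small proteoglycan that binds collagen, rose by 0.54 (FDR 0.000187), from 108, 115 and 129 CPM to 193, 170.0 and 148 CPM. In all 3 genes replicate 1 was the highest KO library and replicate 3 the lowest.

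The type VI chain Col6a3 had a larger fold. It stood at 43.1, 40.7 and 45.3 CPM in untreated WT and at 87.5, 77.3 and 66.1 CPM in untreated KO, with a log2 fold change of 0.84 (SE 0.15, FDR 0.000313). Every KO library was above every WT library. Col16a1, a chain of a fibril-associated collagen, rose by 0.52 (FDR 0.00032), from 9.48, 9.66 and 9.74 CPM to 15.2, 13.6 and 12.8 CPM. Lox, which cross-links collagen and elastin, rose by 0.57 (FDR 0.000902), from 28.7, 27.7 and 28.7 CPM to 50.7, 41.7 and 34.2 CPM. Col2a1, known as the cartilage collagen, rose by 0.58 (FDR 0.00162), from 4.92, 4.64 and 5.29 CPM to 7.73, 8.02 and 6.51 CPM. In each of these genes the lowest KO library exceeded the highest WT library.

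Postn (periostin, a matrix protein of connective tissue) and Thbs1 passed in untreated cells with less support. Postn stood at 123, 132 and 126 CPM in WT and at 196, 159.5 and 131 CPM in KO, so the lowest KO library lay among the WT libraries. Its log2 fold change was 0.35 (FDR 0.0111), and 0.20 (FDR 0.182) without replicate 1 of KO. Thbs1, a matrix glycoprotein that activates latent TGF-beta, stood at 149, 155 and 168 CPM against 258, 202 and 169 CPM. The groups did not overlap, and its log2 fold change of 0.42 (FDR 0.00612) was 0.24 (FDR 0.122) without replicate 1 of KO. Both passed in 3 of the 5 conditions, also with Jurkat cells for 30 min and with OVA for 4 h.

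The same comparison was made within each treatment. With OVA for 30 min, 29 of 48 genes passed, 26 higher and 3 lower in KO. The background was 12.4%, with 6.25% higher and 6.13% lower. Without replicate 2 of that KO group the count was 15, all higher, and the calls over all genes went from 1834 to 718. With Jurkat cells for 30 min, 27 passed (25 higher, 2 lower; background 9.25%, with 5.58% higher and 3.67% lower). With OVA for 4 h, 21 passed (18 higher, 3 lower; background 12.6%, with 6.22% higher and 6.35% lower), and with Jurkat cells for 4 h, 28 passed (25 higher, 3 lower; background 22.9%, with 9.37% higher and 13.5% lower). Without the 3 libraries that stood apart, 50 genes were tested and the 5 counts, from untreated to Jurkat cells for 4 h, were 31 (27 higher), 23 (all higher), 31 (29 higher), 31 (28 higher) and 26 (24 higher). Over all genes, the calls with OVA for 30 min then went from 1834 to 783, and those with OVA for 4 h from 1861 to 1803. Those libraries were picked after the values were seen, and the shares of all genes without them are not given here. With all libraries, the median log2 fold changes over the 48 genes in the 4 treated conditions were 0.54, 0.61, 0.45 and 0.46 in that order, beside medians of -0.0015, -0.0028, -0.0021 and -0.009 over all genes.

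Across the 5 conditions, 14 of the 48 genes (29.2%) were higher in KO each time, against 215 of all 14808 genes (1.45%). They were Col1a1, Col1a2, Col2a1, Col4a2, Col5a1, Col5a2, Col6a3, Col12a1, Col16a1, Bgn, Dcn, Fn1, Lox and Sparc. The smallest and largest of their 5 log2 fold changes were 0.52 and 0.78 for Fn1, 0.52 and 0.58 for Sparc, 0.37 and 0.74 for Col1a1, 0.54 and 0.63 for Lox, and 0.64 and 0.91 for Col6a3. Sparc and Lox thus kept nearly the same fold in every condition. The weakest member of the set was Col12a1, a fibril-associated chain, whose fold of 0.28 with Jurkat cells for 4 h (FDR 0.048) lost its call under the stricter filter, with DESeq2 and without any 1 of the libraries of those groups except replicate 3 of KO. In untreated cells its call (0.34, FDR 0.0323) was lost without any 1 library except replicate 3 of KO, and with OVA for 30 min it was lost without replicate 2 of KO. With Jurkat cells for 4 h the call of Bgn was lost without replicate 2 of WT (0.27), and that of Dcn without replicate 1 or 3 of KO or replicate 2 or 3 of WT (0.32, 0.32, 0.27 and 0.28). The call of Col5a1 in untreated cells was lost without replicate 1 of KO.

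The sum over the 44 chains was 841 to 936 CPM in untreated WT and 1071 to 1359 CPM in untreated KO. The ratio of the group means was 1.39. Under OVA for 30 min, Jurkat for 30 min, OVA for 4 h and Jurkat for 4 h the ratios were 1.55, 1.54, 1.47 and 1.38. For the 14 other matrix genes they were 1.42 untreated, then 1.41, 1.55, 1.53 and 1.35. In each condition the lowest KO sum was above the highest WT sum. Replicate 2 of KO with OVA for 30 min had a chain sum of 1577 CPM beside 1135 and 1336 CPM in its group, and replicate 3 of WT with OVA for 4 h had 1111 CPM beside 884 and 885 CPM. Without the 3 libraries that stood apart, the chain ratios were 1.42 with OVA for 30 min, 1.60 with OVA for 4 h and 1.31 with Jurkat cells for 4 h, and those of the other matrix genes 1.36, 1.60 and 1.30. As description only, these sums carry no test.

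**Figure D2:**
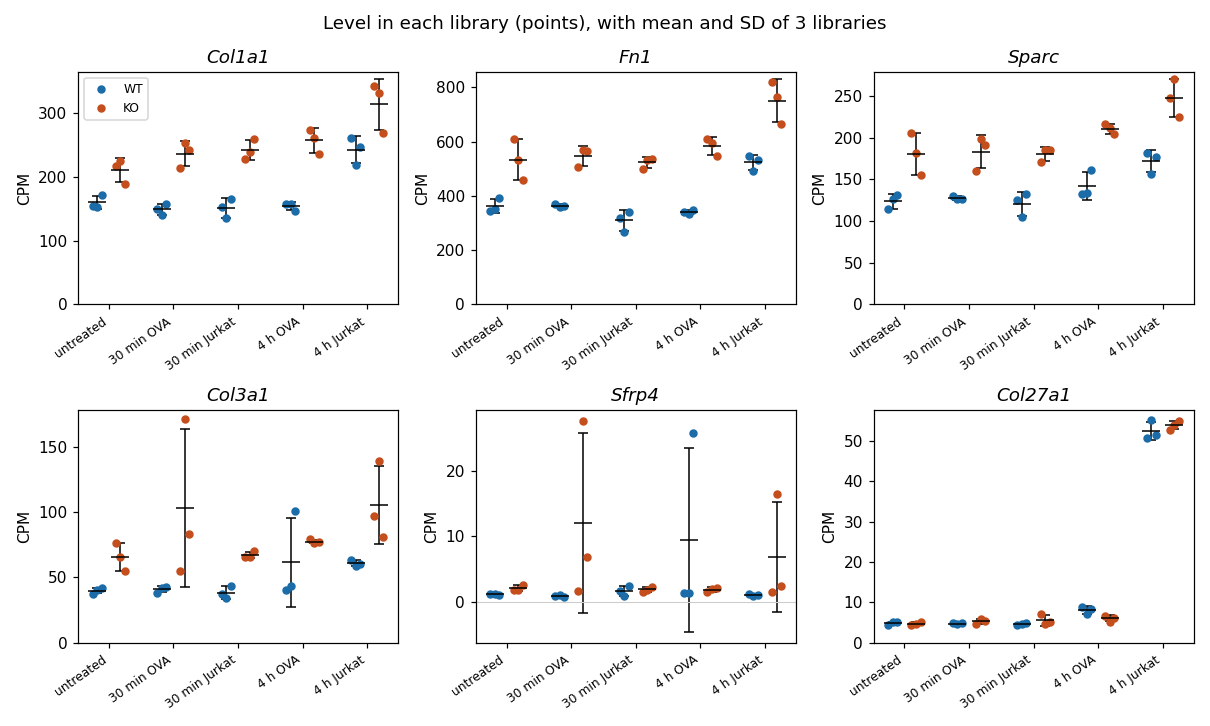
Points are CPM in single libraries of WT (blue) and KO (orange) for 6 genes in the 5 conditions, and bars give the mean and SD of 3 libraries. Col1a1, Fn1 and Sparc are higher in KO in every condition, Sfrp4 is high in 3 single libraries, and Col27a1 is near 50 CPM only with Jurkat cells for 4 h.

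Markers of stroma moved with genotype as well. The summed level of the 14 stromal markers was 166 to 180.0 CPM in untreated WT and 233 to 336 CPM in untreated KO, and 7 of the 13 tested were higher in KO with none lower, beside 6% higher and 3.97% lower over all genes. Acta2 and Tagln, contractile genes of smooth muscle and myofibroblasts, had log2 fold changes of 0.80 and 0.80 in untreated cells. In the treated conditions 9, 6, 5 and 8 of the 13 were higher in KO, and 1 was lower, with OVA for 4 h. Over all genes, 6.25%, 5.58%, 6.22% and 9.37% were higher there and 6.13%, 3.67%, 6.35% and 13.5% lower. With OVA for 4 h the range was 184 to 219.9 CPM in WT and 307 to 310.2 CPM in KO, and with Jurkat cells for 4 h it was 235 to 239.6 CPM against 321 to 450.5 CPM. Of 8 osteoblast markers, 6 were tested in untreated cells, with none higher in KO and 1 lower, and their median log2 fold change was 0.63. The lower one was Runx2, a factor of osteoblasts and of plasmacytoid dendritic cells, at 456 to 512 CPM in WT and 395 to 423 CPM in KO, while Alpl, the alkaline phosphatase of osteoblasts, had 0.29 (FDR 0.369), at 5.80 to 6.62 CPM against 7.61 to 7.83 CPM. Dendritic markers moved too, mostly down. Of the 11 tested, 1 was higher and 4 lower in untreated KO, with a median log2 fold change of -0.07. In the treated conditions 0, 0, 0 and 2 were higher and 4, 3, 5 and 5 lower. The part of the numbers of stromal or dendritic cells in the result was not tested.

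The partner genes of collagen are read against the same shares of all genes, 6% higher and 3.97% lower in untreated KO. In the treated conditions these shares were 6.25%, 5.58%, 6.22% and 9.37% higher and 6.13%, 3.67%, 6.35% and 13.5% lower. Of 11 genes for the processing of collagen outside the cell, 7 were higher in untreated KO and none lower, and in the 4 treated conditions 6, 6, 8 and 6 were higher with none lower. Loxl1, a cross-linking enzyme of the Lox family, had a log2 fold change of 0.81 (FDR 0.00032) in untreated cells, and Pcolce, which enhances cleavage of procollagen, one of 0.55 (FDR 0.00189). Of 16 tested genes for folding and modification inside the cell, 5 were higher in untreated KO and none lower. These included Serpinh1, the collagen chaperone HSP47, at 0.66 (FDR 4.53e-05), and Fkbp10, another chaperone, at 0.62 (FDR 0.000938). P4hb and Ppib, folding enzymes with wider roles, did not pass, at 0.09 (FDR 0.0562) and 0.02 (FDR 0.795), and were named after their values were seen.

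Of 19 genes of the transforming growth factor beta (TGF-beta) axis, which drives matrix production, 10 were higher in untreated KO and none lower. In the 4 treated conditions 9, 9, 10 and 6 were higher, and 2 were lower with Jurkat cells for 4 h. Tgfbi, a matrix protein induced by that factor, had a log2 fold change of 0.35 (FDR 1.9e-06) and Ltbp1, which tethers the latent factor to matrix, one of 0.70 (FDR 0.000509). Of 14 tested basement membrane partners, 6 were higher in untreated KO and 1 lower. Lamc1, a laminin chain, rose by 0.59 (FDR 4.83e-05), while Agrn (agrin) was lower by -0.75 (FDR 3.99e-05). Of 17 matrix receptors, 4 were higher in untreated KO and none lower. In the treated conditions 4, 5, 4 and 3 were higher and 2, 0, 2 and 2 lower, with medians of -0.01, 0.09, -0.04 and -0.02. With Jurkat cells for 4 h, 22.9% of all genes passed, 9.37% higher and 13.5% lower. Ddr2, a collagen receptor of mesenchymal cells, was among those higher in untreated KO, at 0.57 (FDR 0.00451).

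A pair of chains went the other way in all 5 conditions. Col23a1, a chain that spans the cell membrane, stood at 17.3, 18.7 and 17.2 CPM in untreated WT and at 13.02, 13.4 and 14.2 CPM in untreated KO, without overlap. Its log2 fold change was -0.39 (SE 0.07, FDR 0.00029) and lay between -0.39 and -0.25 over the 5 conditions. With OVA for 30 min the call was lost without replicate 2 of KO (-0.25), and with Jurkat cells for 30 min it was lost without replicate 1 or 2 of KO (-0.23 and -0.24) or replicate 2 of WT (-0.18). Col9a3, a chain of the fibril-associated type IX collagen, stood at 1.76, 1.68 and 2.12 CPM against 1.13, 0.974 and 1.18 CPM. Its log2 fold change was -0.76 (SE 0.15, FDR 0.00121) in untreated cells and -0.82 and -0.55 with OVA and Jurkat cells for 4 h. At 30 min it was -0.53 with OVA (FDR 0.0406) and -0.50 with Jurkat cells (FDR 0.0363). The first call was lost without any 1 library except replicate 2 of WT, and the second without replicate 2 or 3 of either genotype.

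Other chains gave no call in most conditions. Col11a2, a chain of a minor fibrillar collagen, had a log2 fold change of -0.01 (FDR 0.981) in untreated cells and passed only with Jurkat cells for 4 h (0.21, FDR 0.00878), a call lost without replicate 1 of that KO group (0.17). Col27a1, a fibrillar chain of cartilage and other tissues, had -0.04 (FDR 0.893) in untreated cells and passed only with OVA for 4 h, where it was lower in KO (-0.42, FDR 0.0132); that call was lost without replicate 2 of KO (-0.33) or replicate 1 of WT (-0.35). In all, 12 of the 48 genes passed in none of the 5 conditions: Mgp, Lum, Col4a5, Col7a1, Col8a2, Col10a1, Col11a1, Col17a1, Col19a1, Col22a1, Col24a1 and Col25a1. Col4a3bp, the row that is no chain, had a log2 fold change of 0.03 (FDR 0.814) in untreated cells.

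Col9a2 also counted among the genes lower with OVA for 30 min, although it was scarcely detected. It was at 0 in all 3 KO libraries and at 0.0213 to 0.0816 CPM in WT, so its fitted fold has no firm size.

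The 3 libraries that stood apart did so in some matrix genes and not in others. Sfrp4, a secreted antagonist of Wnt signalling, stood at 27.6 CPM in replicate 2 of KO with OVA for 30 min, at 16.5 CPM in replicate 2 of KO with Jurkat for 4 h and at 25.7 CPM in replicate 3 of WT with OVA for 4 h. In the other 27 libraries it was at 0.724 to 6.85 CPM. These 3 libraries were picked out by their Sfrp4 level after the values were seen, so what follows describes them and is no test. Each high library was 6.53 to 19.6 times the mean of the other 2 of its group. Of the 38 genes with a mean of at least 1 CPM, only Sfrp4, Mgp, Col3a1, Col4a1, Col5a3 and Pdgfrb were at least 1.28 times that mean in all 3 libraries.

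The type III chain Col3a1 shows the contrast with type I. Its CPM over that of Col1a1 was 0.673, 0.418 and 0.690 in the 3 libraries and 0.242 to 0.350 in the other 27. Mgp, the matrix Gla protein that restrains calcification, stood at 22.6 CPM in replicate 3 of WT with OVA for 4 h and at 2.90 and 2.55 CPM in the others of that group. Col1a1 was 0.929 to 1.11 times the mean of its group's other libraries, Postn (periostin) 0.869 to 1.05 times, Fn1 1.03 to 1.07 times and Dcn 0.940 to 1.11 times. Type I collagen, periostin, fibronectin and decorin were thus close to the rest of their groups in the libraries where type III collagen and Sfrp4 were high.

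**Figure D3:**
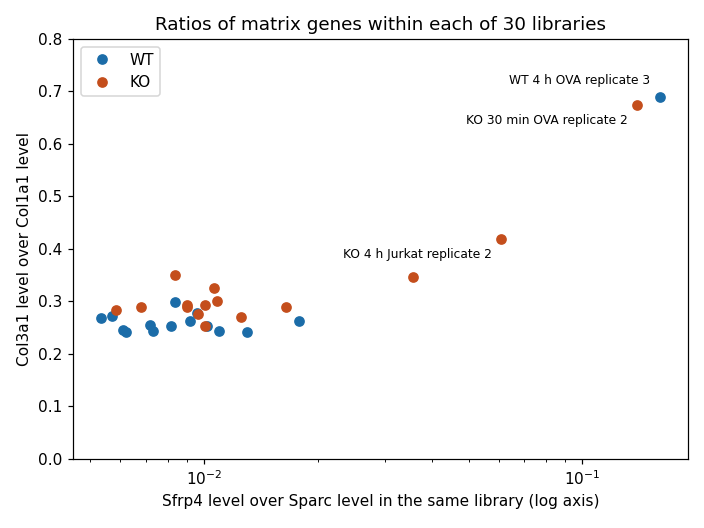
Each point is 1 of 30 libraries, with the level of Sfrp4 over that of Sparc on the x axis (log scale) and the level of Col3a1 over that of Col1a1 on the y axis. The 3 named libraries lie to the right, with Col3a1 over Col1a1 at 0.418 to 0.690, and the other 27 lie at 0.242 to 0.350.

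Some cell type markers were high in the same libraries. Lepr, a receptor that marks perivascular marrow stroma, stood at 4.30 CPM in replicate 3 of WT with OVA for 4 h and at 0.160 and 0.108 CPM in its group, and at 1.80 CPM in replicate 2 of KO with Jurkat for 4 h. In replicate 2 of KO with OVA for 30 min it was at 0.590 CPM, close to the 0.579 CPM of replicate 3. Ibsp, bone sialoprotein, stood at 7.78, 11.5 and 24.6 CPM in the 3 libraries, taken as KO with OVA, KO with Jurkat cells and WT. Emcn, an endothelial sialomucin, stood at 0.394, 0.794 and 1.5 CPM in the same order and at no more than 0.193 CPM in the other 27. Tie1, an endothelial receptor, was at 0.743, 1.03 and 1.54 CPM, with 0.772 CPM in replicate 3 of KO with OVA for 30 min. Adipoq, an adipocyte hormone also made by marrow stroma, stood at 1.04 CPM in replicate 3 of WT with OVA for 4 h and at no more than 0.193 CPM in all others. Other markers of these lists were not high. Tagln stood at 46.6, 81.6 and 26.9 CPM, the lowest of its group in the first and last of them. Runx2, of the osteoblast list, stood at 379.8, 440.8 and 479.2 CPM, the lowest of its group each time. Lpl, of the adipocyte list, stood at 673.1, 950.8 and 680.4 CPM, the lowest of its group in the first and last. Vwf, of the endothelial list, stood at 31.2, 18.4 and 17.5 CPM, the lowest of its group only in the last. The part of a differing mix of cell types in these libraries was not tested.

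Some KO against WT results depended on these libraries. Sfrp4 passed with OVA for 30 min at a log2 fold change of 3.81 (FDR 0.0108). Without replicate 2 of that KO group alone it had 1.72 (FDR 0.493), and without the 3 libraries 1.70. Its value with OVA for 4 h was -2.41 (FDR 0.078), against 0.48 without the 3 libraries. Because the 3 libraries were picked by Sfrp4, its values without them are sizes only and no test. Mgp passed in no condition with all libraries, with log2 fold changes from -0.91 to 1.41. Without the 3 libraries its log2 fold changes were 1.19, 0.96, 0.58, 0.90 and 0.68 from untreated to Jurkat cells for 4 h. Those libraries also stood apart in Mgp, so these values describe it and are no test. Pdgfrb, the pericyte and fibroblast receptor for platelet-derived growth factor, had 1.10 with OVA for 30 min. It had 0.79 both without all 3 libraries and without replicate 2 of that KO group alone (FDR 0.0836). Those libraries stood apart in Pdgfrb as well, so only the size is given without all 3.

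Short exposure changed few of the genes. After 30 min of OVA, 1 of 48 genes passed in WT (background 10.7%, with 5.51% higher and 5.15% lower) and 1 in KO (background 3.77%, with 1.88% higher and 1.88% lower), in both cases Col11a2, which was lower. It stood at 14.2, 14.5 and 13.7 CPM in untreated WT and at 12, 12.5 and 12.2 CPM with OVA, without overlap, for a log2 fold change of -0.21 (FDR 0.02). In KO its log2 fold change was -0.22 (FDR 0.0384). Without replicate 1 of WT with OVA or replicate 2 of untreated WT, 0 passed in WT, and without replicate 3 of WT with OVA, 2 passed. Over all genes the calls in WT went from 1578 to 903, 907 and 1637 in that order. In KO 0 passed without replicate 2 or 3 of either group, and 3 passed without replicate 1 of KO with OVA. Over all genes the calls in KO went from 558 to between 173 and 361 where 0 passed, and to 710 where 3 passed. All comparisons with untreated cells in a genotype share that genotype's untreated libraries.

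After 30 min of Jurkat cells, 1 of 48 genes passed in WT (background 28.7%, with 14.2% higher and 14.5% lower) and 1 in KO (background 17%, with 8.72% higher and 8.26% lower), each lower. In WT it was Fn1, at 319, 268 and 343 CPM against 345, 354 and 391 CPM, with a log2 fold change of -0.23 (FDR 0.0412). All treated libraries were below all untreated ones, but the count in WT was 0 without replicate 1 or 2 with Jurkat cells or replicate 2 or 3 of untreated WT, and 2 without replicate 3 with Jurkat cells. In KO it was Col11a2, at 12.3, 11 and 11.6 CPM against 13.5, 13.9 and 14.8 CPM, for -0.27 (FDR 0.00142). In KO, 4 passed without replicate 1 of the untreated group. Over all genes, the calls in WT went from 4247 to between 3020 and 3561 where 0 passed, and to 4081 where 2 passed. Without replicate 1 of untreated KO, those in KO went from 2514 to 2318.

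After 4 h of OVA, 8 of 48 genes passed in WT, all higher (background 23.5%, with 11.9% higher and 11.7% lower), and 4 in KO, all higher (background 11.6%, with 5.94% higher and 5.69% lower). In WT they were Col9a3, Col18a1, Col19a1, Col27a1, Lum, Mgp, Pdgfrb and Sfrp4. Without replicate 3 of WT with OVA for 4 h the count was 3, without replicate 1 it was 13, and without replicate 2 of untreated WT it was 5. Over all genes the calls went from 3484 to 2958, 2763 and 2747 in that order. Col27a1 was the WT gene with the smallest adjusted p, at 8.80, 7.04 and 8.39 CPM against 4.497, 5.05 and 5.04 CPM. Its groups did not overlap, and the log2 fold change was 0.73 (SE 0.12, FDR 2.33e-05). Col18a1, which yields endostatin in basement membranes, stood at 6.20, 7.12 and 12.6 CPM against 4.92, 3.75 and 4.20 CPM. Its log2 fold change was 1.03 (FDR 0.000259), and 0.64 without the 3 libraries that stood apart. Mgp had 1.96 with all libraries and 0.14 without replicate 3, Sfrp4 had 3.11 and 0.22, Pdgfrb had 0.70 and 0.11, and Col9a3 had 0.54 and 0.38, each without a call once that library was left out.

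In KO the 4 genes higher after 4 h of OVA were Col1a1, Col9a3, Col16a1 and Dcn, a small proteoglycan of collagen fibres, with log2 fold changes of 0.29, 0.48, 0.27 and 0.36. Col1a1 stood at 274, 261 and 236 CPM against 218, 225 and 189.5 CPM, for an FDR of 0.0278. The groups did not overlap. The call of Col1a1 was lost without replicate 1 or 2 with OVA or replicate 3 of untreated KO, and that of Col9a3 without any 1 library. The count was 0 without replicate 1 with OVA, 2 without replicate 2 or 3 with OVA, 9 without replicate 1 of untreated KO, 1 without replicate 2 of it and 2 without replicate 3 of it. Over all genes the calls went from 1722 to 1105, 1285, 1139, 1382, 1316 and 1215 in that order.

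Jurkat cells for 4 h gave the largest changes. The test called 33 of 48 genes in WT, with 30 up and 3 down, where 79.5% of all genes passed, 38.9% higher and 40.6% lower. It called 37 in KO, with 34 up and 3 down, where 78.5% of all genes passed, 37.5% higher and 41% lower. In either direction, the share called was thus no higher than over all genes, at 68.8% in WT and 77.1% in KO. Only the direction differed, with 62.5% of the 48 genes called higher in WT and 70.8% in KO. The median log2 fold change was 0.53 over the 48 genes in WT and 0.52 in KO, beside -0.02 and -0.03 over all genes. These values depend on scaling. With total counts in place of TMM factors the median over all genes moved to -0.42 in WT and -0.37 in KO, 21 genes passed in WT (15 up, 6 down) and 20 in KO (16 up, 4 down), where 83.2% of all genes passed in WT (24.1% higher) and 81.8% in KO (23.9% higher). With DESeq2 size factors that median was 0.04 in WT and 0.03 in KO, and 35 genes (32 up) and 38 genes (35 up) passed. There, 79.7% of all genes passed in WT (41.9% higher) and 78.1% in KO (40.4% higher). With total counts the higher calls thus went from 30 of 33 to 15 of 21 in WT and from 34 of 37 to 16 of 20 in KO.

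**Figure D4:**
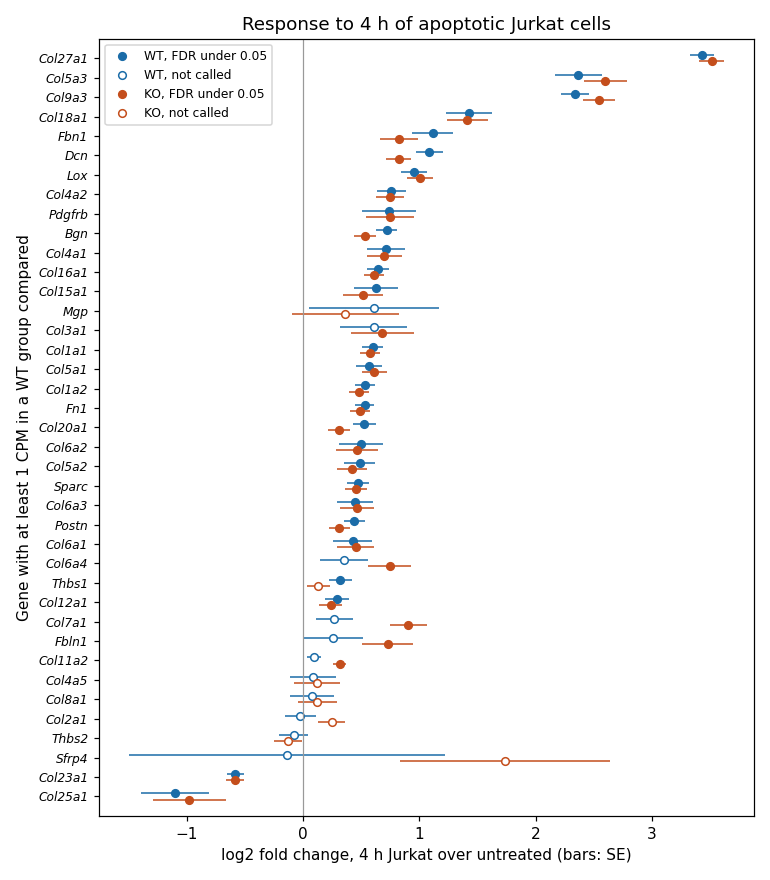
Log2 fold change of Jurkat cells for 4 h over untreated cells, with its SE, for genes of at least 1 CPM in WT with or without Jurkat cells; WT is blue, KO is orange, and filled points have an FDR under 0.05 with TMM scaling. Col27a1, Col5a3 and Col9a3 lie beyond 2 in both genotypes, and Col23a1 and Col25a1 lie below 0.

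A few chains rose by much more than the shift between scalings. Col27a1 stood at 50.8, 55.1 and 51.5 CPM in WT with Jurkat cells against 4.497, 5.05 and 5.04 CPM untreated, and at 52.8, 54.0 and 54.9 CPM against 4.31, 4.64 and 5.19 CPM in KO. The log2 fold changes were 3.43 (SE 0.10, FDR 2.45e-22) and 3.51 (SE 0.10, FDR 1.44e-22), and 3.03 and 3.17 with total counts. After 30 min with Jurkat cells Col27a1 was still at 4.51, 4.70 and 4.90 CPM in WT. Col5a3, a chain of type V collagen, stood at 31.6, 24.8 and 29.6 CPM against 5.21, 5.58 and 5.86 CPM in WT, for 2.37 (SE 0.20, FDR 7.48e-12). In KO it stood at 46.5, 60.6 and 42.8 CPM against 8.34, 9.04 and 7.35 CPM, for 2.60 (SE 0.19, FDR 1.85e-13). Groups did not overlap in either genotype.

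Col9a3 rose from 1.76, 1.68 and 2.12 CPM to 10.1, 9.30 and 8.80 CPM in WT, for a log2 fold change of 2.34 (FDR 1.34e-16), and by 2.54 (FDR 1.84e-16) in KO. With total counts the values were 1.94 and 2.21. Col18a1 rose by 1.42 in WT and 1.41 in KO, Lox by 0.95 and 1.01, and Dcn by 1.09 and 0.82, all called in both genotypes and, with total counts, called in the same direction in both. Chains below 1 CPM before treatment rose too: Col22a1 went from 0.107 to 0.833 CPM in WT, and Col9a2 from 0.0716 to 0.316 CPM. Both were named after their values were seen.

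The abundant matrix genes had smaller folds, whose calls depended on scaling. Sparc rose by 0.47 in WT (FDR 4.94e-05) and 0.46 in KO with TMM factors, and had 0.07 (FDR 0.504) and 0.12 (FDR 0.264) with total counts. Fn1 rose by 0.53 and 0.49, and had 0.13 (FDR 0.163) and 0.15 (FDR 0.1) with total counts. Col1a1 rose by 0.60 and 0.58, and by 0.20 (FDR 0.0434) and 0.24 (FDR 0.0178). The rise of Col1a1 was therefore called under both of these scalings, while the calls of Sparc and Fn1 were lost with total counts. With DESeq2 size factors Sparc had 0.54 and 0.52, and Fn1 0.59 and 0.55, all called. Thbs1 had 0.32 in WT with TMM factors and -0.08 with total counts.

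Col23a1 fell under both scalings. It stood at 11.8, 12.1 and 11.6 CPM against 17.3, 18.7 and 17.2 CPM in WT, for a log2 fold change of -0.58 (FDR 1.96e-08), and at -0.58 in KO, with -0.98 and -0.92 on total counts. Col25a1 and Col17a1, also chains that span the membrane, were the other chains lower in both genotypes, with -1.10 and -1.15 in WT, at mean levels of at most 1.17 CPM.

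Other cell types' genes moved at 4 h too. The 20 T-lineage genes that Jurkat cells could add summed to 95.8 to 101 CPM in untreated WT, 155 to 162 CPM after 30 min with Jurkat cells and 220.6 to 265 CPM after 4 h, and in KO to 105 to 113 CPM, 129 to 144 CPM and 184.5 to 210.5 CPM. Cd3e stood at 0.0647 to 0.102 CPM in untreated WT, at 1.99 to 2.14 CPM after 30 min and at 5.56 to 6.70 CPM after 4 h. Not all of the list rose. Cd28, the most counted of the 20 in untreated WT, went from 49.9 to 57.1 CPM to 22.1 to 24.6 CPM after 4 h. Cd5 went from 5.655 to 6.08 CPM to 3.27 to 4.25 CPM in the same groups. Of 7 tested endothelial genes, 2 were higher after 4 h in WT and 1 lower. Kdr, a receptor for vascular endothelial growth factor, went from 26.2 to 29.9 CPM untreated to 996 to 1228 CPM, and Cdh5 had a log2 fold change of 0.77. Vwf (von Willebrand factor) went from 24.2 to 25.3 CPM to 13.5 to 14.8 CPM, and Tek, Emcn, Ptprb and Tie1 stood at no more than 0.341 CPM in both groups. The sources used here do not say how the counting treated human reads, and their part in the levels at 4 h was not tested.

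Partner genes were counted in the same way, beside the 79.5% of all genes that passed in WT (38.9% higher and 40.6% lower). In the share called in either direction, each list below lay near all genes, such as the folding genes with 14 of 16 and the basement membrane partners with 12 of 14. Of 11 genes that process collagen outside the cell, 9 were higher after 4 h with Jurkat cells in WT and none lower, and of 17 matrix receptors 12 were higher and 2 lower. Loxl4, a cross-linking enzyme, had 1.93 (FDR 3.59e-11), and the fibronectin receptor chain Itga5 had 2.89 (FDR 4.29e-26), while the collagen receptor chain Itga1 had -2.58 (FDR 3.71e-27). Of 16 folding genes, 9 were higher and 5 lower, with P4ha1, a proline hydroxylase subunit, at 1.66 (FDR 7.77e-23). Of 14 basement membrane partners, 10 were higher and 2 lower, with Agrn at 3.22 (FDR 2.55e-21).

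The response of KO was compared with that of WT directly. The test of the difference between responses (edgeR) passed for 0 of the 48 genes after OVA for 30 min, Jurkat for 30 min, OVA for 4 h and Jurkat for 4 h, where 0%, 0.00675%, 0.0405% and 4.26% of all genes passed. At an unadjusted p under 0.05 there were 3, 1, 10 and 3 genes, beside 5.37%, 7.41%, 7.41% and 19.1% of all genes, and DESeq2 also called 0 in each, with 3, 1, 8 and 3 at an unadjusted p under 0.05. For Jurkat cells for 4 h, 1 gene passed without replicate 1 or 2 of that KO group or replicate 1 of that WT group. Over all genes the calls were then 574, 439 and 637 in that order, beside 631 with all libraries. For the 4 h Jurkat response the KO minus WT difference had a median of -0.01 over the 48 genes. A difference that misses the threshold does not show that the responses were equal.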

How the data were processed

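RNA was extracted with TRIzol and columns, treated with DNase and made into TruSeq RNA v2 libraries, per the labels' protocols. The values are raw read counts per gene, as the authors deposited them. The submitters' processing notes name STAR 2.5, Subread, featureCounts 1.5.0-p1, DESeq2 and build mm10, with no role or order. The annotation, strand setting and handling of human reads are, for the counting, not given in the sources used here, so reads of overlapping or antisense genes may be mixed. No column was left without a sample, and no pair of libraries was a duplicate.

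Counts were fitted with edgeR 4.0.16 in R 4.3.3 (quasi-likelihood F test, TMM factors, 1 model of 10 groups over all 30 libraries). The default expression filter kept 14808 of 25611 rows, and p-values were adjusted by Benjamini-Hochberg over all of them, with an FDR under 0.05 called. Each SE was taken as the size of the log2 fold change over root F. CPM uses TMM-scaled library sizes. The script was tested on simulated data. Alternatives were other scalings, other filters, DESeq2 1.42.0, the compared groups alone, a replicate block, each library left out, and, added after seeing the data, 3 libraries left out at once. Members and gene lists were chosen with earlier results of these data known. Members are named if they are Col1a1 or Sparc, if they are among the 8 with the most counts or the 6 smallest adjusted p-values of a comparison at 1 CPM or more, or if their fold rests on 1 library. Up to 3 genes of each other list are named per comparison. Treatment comparisons within a genotype share its untreated libraries.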

Additional observations from a re-analysis of the deposited data

How the results depend on the processing

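Over the named members there were 142 called fold changes. Across 1136 values under other settings, 1081 kept direction and call, 50 kept direction without a call and 5 reversed. The 5 reversals all came with total counts at 4 h of Jurkat cells, where Col11a2 in KO was -0.023, Col12a1 -0.10 in KO and -0.11 in WT, Postn in KO -0.027 and Thbs1 in WT -0.083. Across 852 values with 1 library left out, 755 kept the call, 97 lost it and 0 reversed. In the cases below, most of them given without the share of all genes, counts of members called moved by over 1.5 times. With total counts they were 21 (WT) and 20 (KO) for 4 h of Jurkat cells and 0 for 30 min of OVA in KO. With the compared groups alone they were 0 (WT) and 0 (KO) for 30 min of OVA, 2 for 30 min of Jurkat cells in WT, and 5 (WT) and 7 (KO) for 4 h of OVA. Without the 3 libraries that stood apart they were 2 (WT) and 0 (KO) for 30 min of OVA, 3 for 4 h of OVA in WT, and 1, lower, for the difference in response to 4 h of Jurkat cells. With total counts, the mean summed level moved by more than the SD of its 3 libraries in 5 of 10 groups for the chains and for the other genes alike, and by less in the other 5. That of the chains went from 869 to 908.7 CPM in WT with OVA for 30 min, from 1320.7 to 1049.2 in WT with Jurkat cells for 4 h, from 1272.5 to 1339.1 in KO with Jurkat cells for 30 min, from 1413.7 to 1503.2 in KO with OVA for 4 h and from 1816.8 to 1523.1 in KO with Jurkat cells for 4 h. In the same groups the sum of the other matrix genes went from 1023.6 to 1070.4, from 1422.3 to 1129.4, from 1446.5 to 1522.2, from 1548.3 to 1646.4 and from 1913.9 to 1604.6 CPM. The cause was not tested.

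With 1 library left out, the counts for KO against WT ranged from 17 to 28 untreated, 15 to 29 (OVA, 30 min), 18 to 28 (Jurkat, 30 min), 20 to 30 (OVA, 4 h) and 22 to 31 (Jurkat, 4 h). Against untreated cells they ranged in WT from 0 to 2, 0 to 2, 3 to 13 and 31 to 33 in the same order, and in KO from 0 to 3, 1 to 4, 0 to 9 and 30 to 39. For the difference in response they were 0 throughout, except 0 to 1 for 4 h of Jurkat cells. The calls over all genes are given above for only some of these counts.

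With a replicate block the counts were 26, 27, 27, 22 and 28 for KO against WT, 1, 1, 8 and 33 in WT, 1, 1, 3 and 37 in KO, and 0 for each difference in response. The shares of all genes with that block are not given here. Same-numbered libraries had correlations of -0.11 to 0.13 in their deviations, over 0.1 for every pair in 0 of 13 comparisons, and in 2 of 13 every library correlated best with its own number, so the numbers were not taken as pairs. Chains with a mean under 1 CPM rest on few reads, and the shallowest library had 9.73 M counts.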
